A study of Mus musculus with 6 samples.

Results

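The cytosolic RNA and DNA sensors described here are 10 genes taken by name: the RNA sensors Ddx58, Ifih1 and Dhx58 with their adaptor Mavs, the DNA sensor Cgas with its adaptor Tmem173, the kinases Tbk1 and Ikbke, and the clearance enzymes Trex1 and Samhd1. Each was matched through its symbol in GENCODE M21 (GRCm38), and all 10 were found among the 54532 Ensembl genes listed, Ddx58 being the gene now also called Rigi, Cgas being Mb21d1 and Tmem173 being Sting1. Of these, 9 were among the 10540 genes with a mean of at least 1 FPKM (fragments divided by exon length and library depth) over the 6 libraries, the genes that were tested, and Trex1 was not. RNA-seq was performed on 3 libraries of control iBMDMs and 3 libraries of PGAM5 KD iBMDMs, to ask how loss of PGAM5, a phosphatase of the mitochondrial outer membrane, alters the inflammatory response of macrophages. iBMDMs are mouse bone marrow-derived macrophages made to grow as a line with retroviruses carrying v-raf and v-myc. Control cells had received a control shRNA and PGAM5 KD cells an shRNA against PGAM5, both from lentiviruses. Every library came from cells exposed to LPS at 100 ng/ml for 4 hours, so levels after LPS were compared and no induction over untreated cells was measured. The labels name 1 shRNA per arm and do not say how many transduced populations were used, so the knockdown and any other difference between the arms cannot be told apart, and separate cultures are not stated for the replicates, so p-values measure only the spread between these libraries.

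Cells recognize viral RNA in the cytosol through the helicases RIG-I (encoded by Ddx58) and MDA5 (Ifih1), which signal through MAVS on the mitochondrial outer membrane. DNA in the cytosol is bound by cGAS, which makes the cyclic dinucleotide cGAMP for the adaptor STING (Tmem173) on the endoplasmic reticulum. Both routes end on the kinases TBK1 and IKKε, which phosphorylate interferon regulatory factors, while TREX1 and SAMHD1 degrade DNA or deplete its building blocks and so limit what the sensors meet. In macrophages several of the sensor genes are themselves induced by interferon.

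Depth recovered from the FPKM steps ran from 18165599 to 20178811 fragments in control and from 18163463 to 24388917 fragments in PGAM5 KD libraries. Pgam5 was at 13.0 to 17.1 FPKM in control and 4.33 to 5.75 FPKM in PGAM5 KD libraries (log2 fold change -1.40, limma adjusted p = 0.000358), in the direction of the labels. Macrophage markers summed to between 2980 and 3060 FPKM in control and between 2690 and 2720 FPKM in PGAM5 KD libraries, with Lyz2 the largest part. Mertk was listed at 0 in every library. Of the 8 tested markers, 4 were higher and 3 lower in PGAM5 KD, against 16.8% and 14.9% of all tested genes. Control and PGAM5 KD means in FPKM were 7.93 and 15.1 for Adgre1, 2.41 and 4.46 for Itgam, and 4.34 and 14.1 for Fcgr1. They were 461 and 683 for Cd14, and, for the lower markers, 231 and 148 for Csf1r, 468 and 406 for Cd68, and 1670 and 1270 for Lyz2. Markers of neutrophils, lymphocytes and fibroblasts summed to at most 0.568 FPKM in any library. The dendritic cell list summed to between 85.2 and 95.2 FPKM in control and between 180 and 198 FPKM in PGAM5 KD libraries, almost all of it Bst2, which macrophages also make, and to at most 1.06 FPKM without Bst2. The part of these marker changes in the results below was not tested. In bulk libraries, fewer cells that express a gene and less of its RNA per cell cannot be told apart.

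Among the 9 tested genes, 5 were higher in PGAM5 KD iBMDMs (Ddx58, Dhx58, Ifih1, Tmem173 and Samhd1) and 0 were lower at an adjusted p under 0.05 in limma, while Mavs, Cgas, Tbk1 and Ikbke did not pass. At an unadjusted p under 0.05 these counts were also 5 and 0, and voom on recovered fragments likewise gave 0 lower. Across all tested genes, 16.8% were higher and 14.9% lower by the same rule, 31.7% in either direction. The median log2 fold change of the 9 genes was 0.28, against 0.01 over all tested genes. None of the 9 reached the additional limit of an absolute log2 fold change above 1 that the study's methods use, in the fit described or in any of 15 alternatives, and 1.32% of all tested genes did in the fit described. The libraries of the groups did not overlap for the 5 higher genes and, in the other direction, for Tbk1, which compares with 24.2% of all tested genes not overlapping and higher and 22.9% not overlapping and lower.

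**Figure D1:**
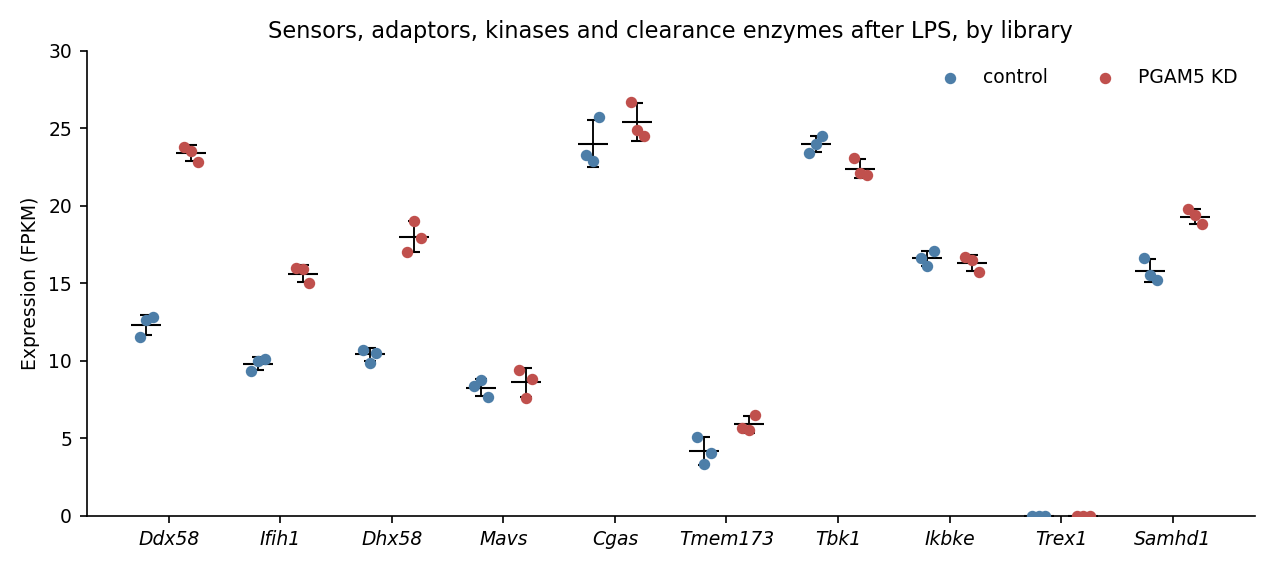
Expression of the 10 genes in FPKM (linear axis from 0). Points are single libraries, 3 control (blue) and 3 PGAM5 KD (red), with the mean as a horizontal line and the SD as a bar. The 3 RNA sensors Ddx58, Ifih1 and Dhx58 and the enzyme Samhd1 stand clear of control in PGAM5 KD libraries, while Mavs, Cgas and Ikbke overlap and Trex1 is listed at 0.

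Short stretches of promoter are given first for the sensors whose mRNA rose, because 2 of them hold the core of the interferon-stimulated response element (ISRE), an element bound by interferon regulatory factors. The search was chosen after the expression values were seen. RefSeq promoters (GRCm38.p6, 250 bases before to 50 after the gene start) were matched for 8 of the 10 genes, all except Dhx58 and Tmem173, and were searched on both strands for the ISRE core (GAAA, any 2 bases, GAAA) and the gamma-activated sequence TTCNNNGAA (GAS). The windows below are 30 bases each, read 5′ to 3′ on the strand of the gene, with the matching letters in capitals and distances counted from the RefSeq start (bases after it are numbered with the start itself as base 1), and those of Ifit1, Rsad2 and Isg15, textbook targets of interferon, are set beside the sensors.
Ddx58, ISRE core on the opposite strand at bases 3 to 12 from the start, chr4:40239804-40239833, minus strand: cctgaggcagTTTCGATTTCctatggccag
Ifih1, ISRE core at bases 33 to 42 from the start, chr2:62646206-62646235, minus strand: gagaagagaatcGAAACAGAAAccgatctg
Samhd1, GAS at 235 to 227 bases before the RefSeq start at 157135096 and 66 to 58 bases before the M21 start at 157135265, chr2:157135313-157135342, minus strand: aacaccaccctTTCGGAGAAacacaagggc
Ifit1, ISRE core on the opposite strand at 104 to 95 bases before the start, with a second match at 85 to 76 bases, chr19:34640775-34640804, plus strand: caggcttcagTTTCACTTTCcagtctcagt
Rsad2, ISRE core on the opposite strand at 120 to 111 bases before the start, chr12:26456553-26456582, minus strand: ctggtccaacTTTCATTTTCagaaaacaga
Isg15, ISRE core at 72 to 63 bases before the start, overlapping 2 further matches, chr4:156200871-156200900, minus strand: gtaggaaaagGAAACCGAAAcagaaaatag

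In Ddx58 and Ifih1 the ISRE core lay just after the start, and in the 3 interferon targets it lay before it. These 3 were shown because they hold the core, and the promoters of Irf7, Nmi and Ifi35, which also respond to interferon and were higher in PGAM5 KD, had no ISRE core match. The distance of the GAS match of Samhd1 depends on which annotated start is used, and the promoters of Mavs, Cgas, Tbk1, Ikbke and Trex1 held neither string of letters. The ISRE core was present in 3.44% and the GAS in 8.3% of all 32851 promoters searched. Among genes with a promoter in the table, the ISRE core was in 6.2% of the 1339 genes higher in PGAM5 KD, in 3.27% of the 1191 genes lower, and in 3.32% of the 5150 tested genes that passed in neither direction. For the GAS these shares were 8.89%, 7.64% and 7.84%. A match describes letters in the window and not binding.

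The RNA sensors rose together. Ddx58 (ENSMUSG00000040296, chromosome 4 from 40203773 to 40239828, minus strand) encodes RIG-I, which recognizes short double-stranded RNA with 5′ triphosphates. Control libraries held 11.5, 12.6 and 12.8 FPKM of Ddx58 and PGAM5 KD libraries 23.8, 23.5 and 22.8 FPKM. The 3 PGAM5 KD libraries were all far above the highest control library and lay close to each other. The means of 12.3 ± 0.673 FPKM for control and 23.4 ± 0.523 FPKM for PGAM5 KD cells (SD, n = 3 each) stood in a ratio of 1.9. On the log2(FPKM + 1) scale, where the changes of low genes come out too small, the difference was 0.88 (standard error 0.05, 95% interval 0.76 to 0.99, limma adjusted p = 5.48e-05), from 1478 to 3922 fragments per library. This put Ddx58 at rank 154 of the 10540 tested genes by log2 fold change, and it stayed past the threshold in 15 of 15 alternatives, with values from 0.83 to 0.92.

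Ifih1 (ENSMUSG00000026896, chromosome 2 from 62595798 to 62646255, minus strand) encodes MDA5, which recognizes long double-stranded RNA. It was at 9.32, 10.0 and 10.1 FPKM in control and at 16.0, 15.9 and 15.0 FPKM in PGAM5 KD libraries. No control library came near the lowest PGAM5 KD library. The means were 9.81 ± 0.424 and 15.6 ± 0.545 FPKM (SD, n = 3 each), and the log2 fold change was 0.62 (standard error 0.05, limma adjusted p = 0.000222). Dhx58 (ENSMUSG00000017830, chromosome 11 from 100694884 to 100704271, minus strand) encodes LGP2, a helicase without the signaling domains of the other two, which tunes MDA5 and RIG-I. It was at 10.7, 9.86 and 10.5 FPKM in control and at 17.0, 19.0 and 17.9 FPKM in PGAM5 KD libraries. The groups were again well apart, with a wider spread among the PGAM5 KD libraries (10.4 ± 0.436 against 18.0 ± 1.0 FPKM, SD, n = 3 each). The log2 fold change of Dhx58 was 0.74 (standard error 0.06, limma adjusted p = 0.000173). An antisense gene, Dhx58os, shares 141 of its 3272 exon bases and was at 0.155 to 0.483 FPKM, and the strand setting of the counting is not given in the sources used here. Both Ifih1 and Dhx58 stayed past the threshold in 15 of 15 alternatives.

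The summed level of the 3 RNA sensors was 31.5, 32.5 and 33.4 FPKM in control and 56.8, 58.5 and 55.7 FPKM in PGAM5 KD libraries. Ddx58 made up a larger part of this sum in PGAM5 KD cells, at 41.1 ± 0.835% against 37.9 ± 1.17% in control cells (SD, n = 3 each), and Ifih1 a smaller part, at 27.4 ± 0.628% against 30.2 ± 0.644%. The libraries did not overlap for either of these shares. The share of Dhx58 was 31.9 ± 1.8% in control and 31.5 ± 1.39% in PGAM5 KD cells, with overlapping libraries. These shares are within a library and do not depend on scaling between libraries.

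Mavs (ENSMUSG00000037523, chromosome 2 from 131234063 to 131248025, plus strand) encodes the adaptor that both helicases engage and that sits, like PGAM5, on the mitochondrial outer membrane. Its expression was 8.36, 8.74 and 7.66 FPKM in control and 9.41, 7.60 and 8.79 FPKM in PGAM5 KD libraries. The groups overlapped, and the lowest value of all was in a PGAM5 KD library. This gave a log2 fold change of 0.05 (standard error 0.08, 95% interval -0.15 to 0.25, limma adjusted p = 0.681), from 462 to 717 fragments per library, so a change of the size seen for Ifih1 lies outside the interval and a small change in either direction lies inside it. The direction turned when the libraries were scaled to TPM (-0.021) and when PGAM5 KD replicate 1 was left out (-0.01).

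The ratio of Ddx58 to Mavs FPKM within a library compares the sensor with its adaptor. It was 1.38, 1.44 and 1.67 in control and 2.53, 3.1 and 2.6 in PGAM5 KD libraries. The lowest ratio in PGAM5 KD was above the highest in control, with means of 1.5 ± 0.151 and 2.74 ± 0.31 (SD, n = 3 each). The log2 fold changes of the pair differed by 0.82 (exact permutation test, two-sided, p = 0.1, the smallest value that 3 libraries against 3 allow).

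**Figure D2:**
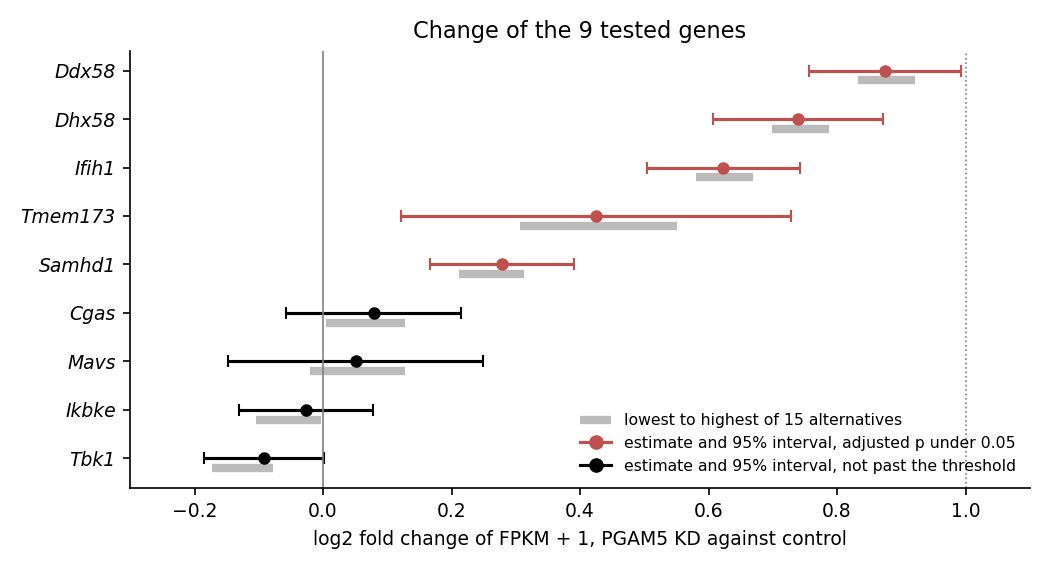
Log2 fold change of log2(FPKM + 1), PGAM5 KD against control, for the 9 tested genes. Points and thin bars give the limma estimate with its 95% interval (red past an adjusted p under 0.05, black not), grey bars the lowest to the highest value over 15 alternatives, and the dotted line a log2 fold change of 1. Ddx58, Dhx58 and Ifih1 lie from 0.62 to 0.88, and the intervals of Cgas, Mavs, Ikbke and Tbk1 include 0.

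The DNA sensor did not pass the test. Cgas (ENSMUSG00000032344, chromosome 9 from 78430526 to 78443237, minus strand) encodes cGAS. It was at 23.3, 22.9 and 25.7 FPKM in control and at 26.7, 24.9 and 24.5 FPKM in PGAM5 KD libraries. The groups overlapped, with 1 control library above 2 of the 3 PGAM5 KD libraries. The log2 fold change was 0.08 (standard error 0.06, 95% interval -0.06 to 0.21, limma adjusted p = 0.335), and it was past the threshold in 0 of 15 alternatives. Gm8093, a pseudogene on the other strand, shares 201 exon bases with Cgas, and at least 98.9% of the fragments on either gene were on Cgas.

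Tmem173 (ENSMUSG00000024349, chromosome 18 from 35733679 to 35740554, minus strand) encodes STING. Its expression was 5.09, 3.34 and 4.07 FPKM in control and 5.67, 5.5 and 6.48 FPKM in PGAM5 KD libraries. All 3 PGAM5 KD libraries were above control, but the highest control library was close to the lowest of them. The means were 4.17 ± 0.882 and 5.89 ± 0.525 FPKM (SD, n = 3 each), and the log2 fold change was 0.42 (standard error 0.13, 95% interval 0.12 to 0.73, limma adjusted p = 0.0428). With 155 to 364 fragments per library, from an exon length of 2302 bases that its values imply (2741 bases in M21), it was the tested sensor gene with the fewest, and its call held in only 7 of 15 alternatives, with adjusted p from 0.0116 to 0.127. It was lost without control replicate 2 (0.31, adjusted p = 0.0955), without control replicate 3 (0.42, adjusted p = 0.105) and without PGAM5 KD replicates 1, 2 or 3 (0.45, 0.47 and 0.36, limma adjusted p = 0.0781, 0.0737 and 0.127). The ratio of Cgas to Tmem173 FPKM was 4.57, 6.88 and 6.31 in control and 4.71, 4.52 and 3.77 in PGAM5 KD libraries. These ratios overlapped, since control replicate 1 lay between PGAM5 KD libraries, and their log2 difference of -0.35 had an exact permutation p of 0.2.

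Neither of the kinases where both routes meet passed the test. Tbk1 (ENSMUSG00000020115, chromosome 10 from 121546455 to 121586787, minus strand) was at 23.4, 24.0 and 24.5 FPKM in control and at 23.1, 22.1 and 22.0 FPKM in PGAM5 KD libraries. Each PGAM5 KD library was below each control library, by a small margin. The log2 fold change was -0.09 (standard error 0.04, limma adjusted p = 0.118), and the exact permutation p was 0.1, the smallest possible. Scaling to TPM, which takes out the difference in summed FPKM between the groups (304393 to 304889 in control and 317936 to 324298 in PGAM5 KD libraries), gave -0.17 with an adjusted p of 0.025 for Tbk1 in limma, the only 1 of 15 alternatives in which Tbk1 passed.

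Ikbke (ENSMUSG00000042349, chromosome 1 from 131254343 to 131279606, minus strand), which encodes IKKε, was at 16.6, 16.1 and 17.1 FPKM in control and at 16.7, 16.5 and 15.7 FPKM in PGAM5 KD libraries. The groups overlapped. The log2 fold change was -0.03 (standard error 0.04, 95% interval -0.13 to 0.08, limma adjusted p = 0.682). Antisense genes share 159 and 65 of its 9018 exon bases, the larger stretch with Gm28914 and the smaller with Gm28913, which reached 6.75 FPKM in a control library. The ratio of Ikbke to Tbk1 FPKM was 0.71, 0.672 and 0.698 in control and 0.721, 0.744 and 0.715 in PGAM5 KD libraries. The lowest PGAM5 KD ratio was just above the highest control ratio (log2 difference 0.07, exact permutation p = 0.1).

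**Figure D3:**
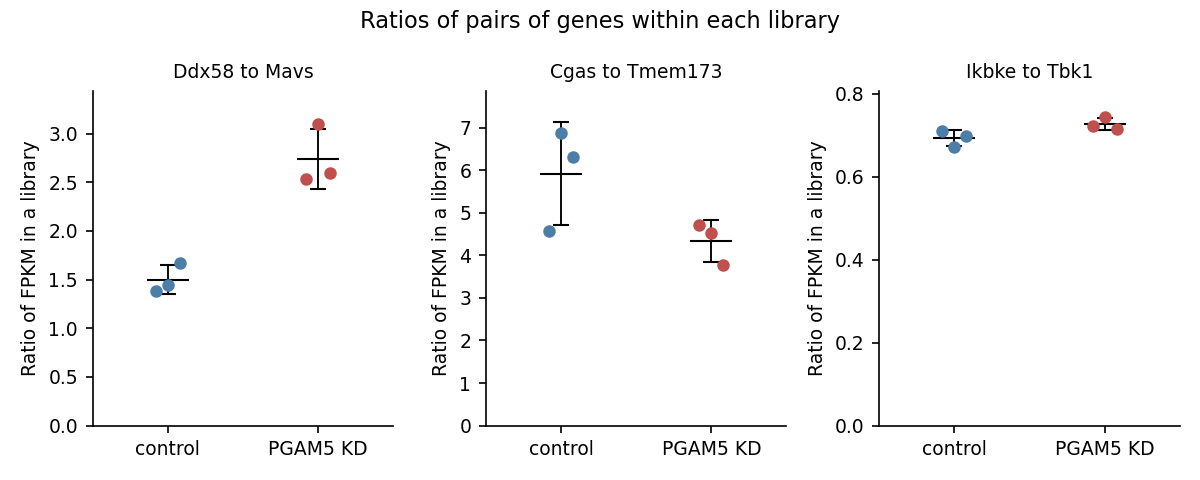
Ratio of the FPKM of a pair of genes within each library (linear axes from 0), for Ddx58 to Mavs, Cgas to Tmem173 and Ikbke to Tbk1. Points are libraries, 3 control (blue) and 3 PGAM5 KD (red), lines are means and bars the SD. The Ddx58 to Mavs ratio has means of 1.5 and 2.74 with no overlap, the Cgas to Tmem173 ratio overlaps, and the Ikbke to Tbk1 ratio moves from 0.693 to 0.727.

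Of the clearance enzymes, Samhd1 rose and Trex1 gave no measurement. Samhd1 (ENSMUSG00000027639, chromosome 2 from 157097533 to 157135265, minus strand) encodes a dNTP triphosphohydrolase. It was at 16.6, 15.5 and 15.2 FPKM in control and at 19.8, 19.4 and 18.8 FPKM in PGAM5 KD libraries. The groups were separate and the spread within each was small (15.8 ± 0.73 against 19.3 ± 0.495 FPKM, SD, n = 3 each). The log2 fold change was 0.28 (standard error 0.05, limma adjusted p = 0.00542), past the threshold in 15 of 15 alternatives with values from 0.21 to 0.31.

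Trex1 (ENSMUSG00000049734, chromosome 9 from 109057933 to 109059734, minus strand) encodes the main 3′ exonuclease for cytosolic DNA and was listed at 0 in all 6 libraries. All 1147 of its exon bases are also exon of Atrip on the same strand, and Atrip was at 3.18 to 3.89 FPKM (log2 fold change -0.10, limma adjusted p = 0.412). Protein-coding genes whose exons are wholly shared with genes of the same strand were listed at 0 in every library in 118 of 133 cases (88.7%). Those wholly shared with genes of the other strand only were at 0 in 34 of 35 cases (97.1%). This compares with 6590 of the 15538 (42.4%) that share no exon base. The listing at 0 is therefore given without a statement on the expression of Trex1, and fragments of Trex1 and Atrip cannot be told apart here.

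FPKM is per length, and the length counts all annotated exon bases of a gene, so the order between genes depends on that length. Ikbke, with 9018 exon bases, held 2700 to 3459 fragments per library, and Tbk1, with 3910, held 1573 to 2097. The order given here is by FPKM. In control cells Cgas (22.9 to 25.7 FPKM) and Tbk1 (23.4 to 24.5 FPKM) were highest and overlapped, followed by Ikbke and Samhd1, which also overlapped. Ddx58 came next, then Dhx58 and Ifih1, which overlapped, then Mavs, and Tmem173 was lowest of the genes with fragments. In PGAM5 KD cells Ddx58 (22.8 to 23.8 FPKM) had moved to second place, overlapping Tbk1 and below Cgas (24.5 to 26.7 FPKM). Dhx58 had moved above Ikbke and next to Samhd1, which it overlapped, Ifih1 overlapped Ikbke, and Mavs and Tmem173 kept the last places.

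Lgals3bp and Stat2 were among the 3 genes whose values over the 6 libraries were most like those of Ddx58, by the root mean square difference of log2(FPKM + 1) centred on each gene's mean (0.0444 and 0.0484). Stat2, which transmits the type I interferon signal, was at 5.83, 6.1 and 6.91 FPKM in control and at 12.3, 11.8 and 12.2 FPKM in PGAM5 KD libraries. For Cgas the 3 most alike were Kcnab2, Alg5 and Siva1 (0.0195, 0.0204 and 0.0239). All of these points share the same 6 libraries, and the order follows the group difference for Ddx58 and small differences between libraries for Cgas.

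The other genes of the pathways were taken from 6 lists of names, with 107 of 124 genes tested when each is counted once. Of these, 24 were higher and 16 lower in PGAM5 KD at an adjusted p under 0.05, with a median log2 fold change of 0.01, next to 16.8% and 14.9% of all tested genes. RNA sensing partners, which modify RIG-I, MDA5 or MAVS or bind RNA beside them, had 6 higher and 4 lower of 25 tested, with a median of 0.01. Among them March5, a mitochondrial ubiquitin ligase that acts on MAVS, was at 36.9, 40.0 and 37.1 FPKM in control and 51.4, 49.2 and 50.1 FPKM in PGAM5 KD libraries (log2 fold change 0.39, limma adjusted p = 0.00079). Trim14, which is recruited to MAVS, rose from 3.58 ± 0.602 to 5.83 ± 0.584 FPKM (SD, n = 3 each, limma adjusted p = 0.00951). Nlrc5, known best for its control of MHC class I genes, rose by 0.42 on the log2 scale (limma adjusted p = 0.0164) and held its call in 12 of 14 alternatives, losing it without PGAM5 KD replicate 3 (0.41, adjusted p = 0.0565) and without a filter (adjusted p = 0.054). The RNA helicases Dhx33 and Dhx9 fell, Dhx33 from 13.0 ± 0.431 to 8.3 ± 0.234 FPKM (limma adjusted p = 0.000221) and Dhx9 from 57.8 ± 0.785 to 47.8 ± 1.5 FPKM (adjusted p = 0.00179; SD, n = 3 each). Trim25, the ubiquitin ligase of RIG-I, had a log2 fold change of -0.14 (limma adjusted p = 0.0282) that held in 8 of 15 alternatives and in 1 of the 6 that left out a library. Ddx60, a helicase reported to assist RIG-I, was chosen after its values were seen and lay below the filter at 0.108, 0.143 and 0.242 FPKM in control and 1.23, 1.22 and 1.25 FPKM in PGAM5 KD libraries (limma without a filter, adjusted p = 0.00143).

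DNA sensing partners had 3 higher and 2 lower of 24 tested, with a median log2 fold change of -0.01. Of the 3 higher genes, Ifi204 and Zbp1 averaged under 1 FPKM in control cells and passed the filter only through the PGAM5 KD libraries. Ifi204, a mouse relative of IFI16, was at 0.928, 0.918 and 1.14 FPKM in control and 3.04, 3.25 and 3.49 FPKM in PGAM5 KD libraries (limma adjusted p = 0.000305), but its family shares sequence, and only 2.28% to 7.31% of the fragments on Ifi204 and Ifi207 were on Ifi204, so the value is uncertain. Zbp1, a sensor of Z-form nucleic acid, was at 1.17, 0.702 and 0.987 FPKM in control and 1.82, 1.62 and 2.18 FPKM in PGAM5 KD libraries (limma adjusted p = 0.0209), and its call held in 10 of 14 alternatives and in 3 of the 6 that left out a library. Pqbp1, which aids cGAS, had a log2 fold change of 0.23 (limma adjusted p = 0.0245, past the threshold in 8 of 15 alternatives). RNA polymerase III copies DNA into RNA that RIG-I can sense. Its subunit Polr3d fell from 18.0 ± 1.05 to 13.3 ± 0.492 FPKM (SD, n = 3 each, limma adjusted p = 0.00203), and Polr3a changed by -0.15 on the log2 scale (adjusted p = 0.0483), a call that held in 5 of 15 alternatives and in 0 of the 6 that left out a library.

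Genes of STING trafficking and turnover had 3 higher and 4 lower of 19 tested, with a median log2 fold change of -0.06. The partners Nmi and Ifi35, both inducible by interferon, rose from 5.42 ± 0.341 to 9.17 ± 0.913 FPKM (limma adjusted p = 0.00133) and from 14.5 ± 0.138 to 21.9 ± 0.83 FPKM (adjusted p = 0.000172), and Ap1s1, an adaptor subunit for vesicle sorting, rose from 116 ± 4.84 to 136 ± 3.5 FPKM (adjusted p = 0.00578; SD, n = 3 each), with log2 fold changes of 0.14 to 0.26 over 15 alternatives. Npc1, a lysosomal cholesterol transporter, fell from 9.79 ± 0.413 to 6.33 ± 0.248 FPKM (limma adjusted p = 0.000506), but shares 323 bases with Rmc1 and resembles Vps35l over 218 bases, and 75.5% to 79.3% and 44.2% to 58.9% of the fragments on each pair were on Npc1, so its value is uncertain. Insig1, which retains sterol regulators in the endoplasmic reticulum, fell from 29.0 ± 0.776 to 21.8 ± 0.195 FPKM (limma adjusted p = 0.000411). Abcc1, an exporter able to carry cGAMP, fell from 21.8 ± 0.615 to 16.7 ± 0.653 FPKM (limma adjusted p = 0.00133; SD, n = 3 each for the 3 genes).

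Scaffolds and substrates of TBK1 and IKKε had 3 higher and 3 lower of 18 tested, with a median log2 fold change of -0.04. Irf7, the interferon-inducible regulatory factor, was at 15.2, 14.5 and 15.9 FPKM in control and 49.3, 45.7 and 49.2 FPKM in PGAM5 KD libraries. The groups were far apart (log2 fold change 1.60, limma adjusted p = 7.42e-06). Irf3, the constitutive factor of the same family, was at 9.69, 9.44 and 9.73 FPKM in control and 9.02, 9.18 and 9.55 FPKM in PGAM5 KD libraries. Its groups overlapped and it did not pass (log2 fold change -0.05, limma adjusted p = 0.433). Sqstm1, the autophagy receptor p62, fell from 271 ± 5.66 to 172 ± 4.23 FPKM (SD, n = 3 each, limma adjusted p = 2.54e-05). Ticam1, which encodes the TLR adaptor TRIF, and Azi2, a TBK1-binding scaffold, had log2 fold changes of 0.25 and 0.21 (limma adjusted p = 0.0239 and 0.0169) that held in 9 and 12 of 15 alternatives. Fadd, a death domain adaptor, and Traf3, a ubiquitin ligase, had log2 fold changes of -0.33 and -0.17 (limma adjusted p = 0.021 and 0.0489), which held in 9 of 14 and 7 of 15 alternatives.

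Nucleic acid clearance genes had 3 higher and 3 lower of 15 tested, with a median log2 fold change of 0.05. Dnase2a, the lysosomal DNase, fell from 15.7 ± 0.662 to 11.3 ± 1.12 FPKM (SD, n = 3 each, limma adjusted p = 0.00461). The mitochondrial helicase Supv3l1 changed by -0.18 on the log2 scale (limma adjusted p = 0.0169), a call that held in 12 of 15 alternatives. Pnpt1, a mitochondrial exoribonuclease, rose from 29.8 ± 2.08 to 36.2 ± 1.79 FPKM (limma adjusted p = 0.0147), and Adar, the RNA editing enzyme whose loss activates MDA5, from 23.9 ± 0.482 to 27.4 ± 0.793 FPKM (adjusted p = 0.011; SD, n = 3 each). Adar shares 1014 bases with Chrnb2, and at least 91.6% of the fragments on the pair were on Adar. The call of Adar was lost with scaling to TPM (log2 fold change 0.12, limma adjusted p = 0.0579) and held in the other 14 of 15 alternatives. Rnaseh2c, a subunit of the ribonuclease that removes RNA from DNA, rose from 14.8 ± 1.56 to 22.1 ± 2.07 FPKM (SD, n = 3 each, limma adjusted p = 0.00477), but shares 426 bases with Kat5, which held most of the fragments on the pair, so its value is uncertain.

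In the list of interferon genes and early targets, 6 of the 7 tested genes were higher in PGAM5 KD by limma. The 7 had a median of 0.97 on the log2 scale, and 0 were lower (also 0 at an unadjusted p under 0.05 and with voom). Of all tested genes, 16.8% were higher and 14.9% lower. The exception among the 7 was Cxcl10, a chemokine gene, named because it was the only 1 not to pass (0.22, limma adjusted p = 0.0583). Every library had received LPS, and whether the sensors act upstream of these genes was not tested. Rsad2 (viperin) was at 7.61, 8.39 and 7.61 FPKM in control and 23.5, 25.4 and 24.0 FPKM in PGAM5 KD libraries, Ifit1 rose from 8.21 ± 0.352 to 24.1 ± 0.402 FPKM and Isg15 from 39.9 ± 3.39 to 98.4 ± 7.18 FPKM (SD, n = 3 each). Their log2 fold changes were 1.51, 1.45 and 1.28 (limma adjusted p = 1.44e-05, 7.42e-06 and 6.53e-05). The interferon genes themselves gave no call. Ifnb1 lay below the filter, at 2.06, 0.661 and 0.615 FPKM in control and 0.425, 0.514 and 1.26 FPKM in PGAM5 KD libraries, with overlapping groups (limma without a filter, log2 fold change -0.25, adjusted p = 0.66), and the other 7 interferon genes of the list were listed at 0 in all 6 libraries.

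**Figure D4:**
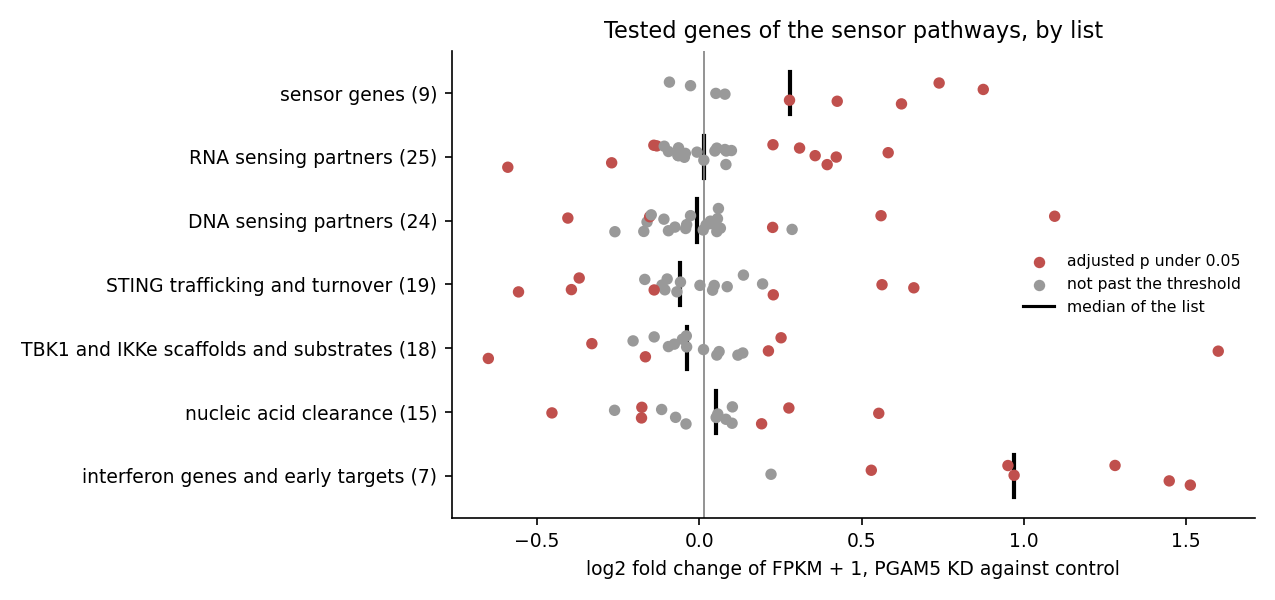
Log2 fold change of log2(FPKM + 1), PGAM5 KD against control, for each tested gene of the sensors and of the 6 pathway lists, with the number tested in parentheses. Red points are past an adjusted p under 0.05 in limma, grey points are not, black bars are list medians and the vertical line is the median of all tested genes (0.01). The sensors (0.28) and the interferon genes and early targets (0.97) have the highest medians, and the other 5 lists have medians from -0.06 to 0.05.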

How the data were processed

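Poly(A) RNA of 3 control and 3 PGAM5 KD libraries was sequenced, and the authors deposited FPKM, 1 table per library, with no scaling between libraries beyond depth. The submitters' processing notes name HISAT2 2.0.5, featureCounts 1.5.0-p3 and mm10, and the strand setting is not given in the sources used here. GENCODE M21 (GRCm38) held 54495 of the 54532 identifiers and gave names, coordinates and exon lengths. FPKM multiplied by exon length fell within 0.01 of whole fragments for 96.8% to 97.1% of values under 1000 fragments, which gave the depth. For Tmem173 the length behind the deposited values, 2302 bases, was recovered from the values and used for its stated fragments, while voom used M21 lengths for every gene.

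Genes averaging 1 FPKM or more over the libraries were tested on log2(FPKM + 1) by limma 3.58.1 under R 4.3.3 (mean-variance trend, two-sided, Benjamini-Hochberg over all tested genes), and for single genes also with an exact permutation test. Groups came from the labels. The sensors, the lists and the tests were chosen with earlier results of these data known. Named genes are the sensors, Pgam5, up to 3 rising and 3 falling genes of each list by size among those past the threshold, Ifnb1, Irf3, Irf7, the 3 genes most like Ddx58 or Cgas, and their overlapping or similar genes (85% identity or more along 200 aligned bases or more, by blastn 2.17.0). Some genes that this rule names are not reported here. Differences between 2 sensors were planned as a limma fit with the second gene subtracted from every gene. That fit is not given, because the subtracted gene's noise enters every row, and ratios within libraries with an exact permutation test are given instead for 3 pairs. The alternatives were quantile normalization, TPM, a pseudocount of 0.1, no filter, a minimum mean of 5 FPKM, centring on the library median, no trend, a replicate block, voom on recovered fragments, and leaving out each library. Python 3.11.15, pandas 2.3.3 and matplotlib 3.10.9 made the tables and figures.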

Additional observations from a re-analysis of the deposited data

How the results depend on the processing

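Ddx58, Ifih1, Dhx58 and Samhd1 kept their call in all 15 alternatives, and Cgas, Mavs and Ikbke passed in none of them. Mavs turned to -0.021 with TPM and to -0.01 without PGAM5 KD replicate 1, with values from -0.01 to 0.128 on leaving out each library, and Tmem173 lost its call without a filter (adjusted p = 0.114), with TPM (0.0692), without a trend (0.0555) and in 5 of the 6 fits that left out a library. With TPM, 1 sensor gene (Tbk1) was lower, and over all genes 1088 were higher and 2282 lower, 32.3% of calls being higher against 52.9% with FPKM. The genes higher and lower with an absolute log2 fold change above 1, 83 and 56, became 154 and 107 with a pseudocount of 0.1, 49 and 27 at a mean FPKM of at least 5 and 170 and 108 with voom, and the lower ones 116 with TPM.

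Of the lists, RNA sensing partners had 8 lower genes with TPM, 2 without a trend and 2 to 4 on leaving out a library (2 without control replicate 1, 2 or 3 or PGAM5 KD replicate 3). DNA sensing partners had 1 higher gene without a filter and 1 at a mean FPKM of at least 5, and 1 to 2 on leaving out a library (1 without control replicate 2), and its lower genes were 1 without a filter, 5 with TPM, 1 after centring, 4 with voom and 1 to 2 on leaving out a library (2 only without PGAM5 KD replicate 1). Scaffolds of TBK1 and IKKε had 1 higher gene with TPM and 1 to 3 on leaving out a library (1 without PGAM5 KD replicate 3), and 1 lower gene without a filter, 5 with TPM, 5 with voom and 1 to 3 on leaving out a library (1 without control replicates 1 or 3 or PGAM5 KD replicate 2). Nucleic acid clearance had 1 to 2 lower genes on leaving out a library (1 without control replicate 1 or PGAM5 KD replicates 2 or 3). The cause of these changes was not tested.

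Control and PGAM5 KD libraries share replicate numbers, but the deviations of same-numbered libraries correlated at -0.02, 0.016 and -0.052. No library correlated best with its own number, so the numbers were not taken to pair them. With the replicate block, 1440 genes were higher and 1212 lower, 5 sensor genes were higher, Tmem173 had an adjusted p of 0.0499, and lower genes became 2 in the RNA sensing and 1 in the DNA sensing list. The ratio of Trex1 to Samhd1 was not run, since Trex1 is listed at 0. Genes with few fragments, Tmem173 first among the sensors, were measured with the least precision.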
